A study of Mus musculus with 3 samples.

Results

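The 9 imprinted genes Meg3, Rian, Mirg, Dlk1, H19, Igf2, Cdkn1c, Peg3 and Ndn were followed through the cell types of the mouse vomeronasal organ (VNO), the pheromone-sensing organ at the base of the nasal septum, out of 32285 genes in the count matrices. They were taken as a list of gene symbols and counted in barcodes with 200 to 9000 detected genes and at most 10% mitochondrial UMIs (unique molecular identifiers, each standing for 1 captured RNA molecule), and the levels at postnatal day 10 (P10) were set beside those at 3 months. The list was selected on the levels of these genes by cell type and on their difference between P10 and 3 months in these same libraries, so the levels and the differences between ages below are a description and carry no test. Levels are given as CPM, the UMIs of a gene per 1000000 UMIs of the same cells, and 3 values in a row follow the order P10 control, P10 mutant, 3-month mutant. Over all kept cells Meg3 stood at 1651, 2093 and 495 CPM, whereas Igf2 stood at 64.5, 72.0 and 65.8.

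The study asked how forced expression of the transcription factor AP-2ε (gene Tfap2e) acts on vomeronasal sensory neurons (VSNs) soon after it starts and in the adult. There were 3 droplet libraries, each from whole VNOs of male mice on a mixed C57 BL/6J and 129P2/OlaHsd background, and each group was a single library. The P10 control was heterozygous for OMPCre, and the P10 mutant and the 3-month mutant (titled P90) were OMPCreR26AP2e double heterozygotes, so that all 3 libraries carried OMPCre. In the mutants Cre made from the Omp locus switches on AP-2ε from the Rosa26 locus in neurons that express Omp. The number of animals behind each library was not given in the sources used here. With no 3-month control here and 1 library per group, age, animal and library cannot be told apart, and no p-value was computed. Intervals are 95% and cover counting error only.

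Imprinted genes are transcribed mainly from the copy inherited from the mother or the copy inherited from the father, according to methylation marks set in the germ line. Meg3, Rian and Mirg are long noncoding RNAs made from the maternal copy of the Dlk1-Dio3 domain and act as hosts of microRNAs and small nucleolar RNAs, while Dlk1, a Notch-ligand-like membrane protein, comes from the paternal copy of the same domain. H19 (a maternal noncoding RNA) and Igf2 (a paternal growth factor) form a second domain, Cdkn1c encodes the maternally expressed cyclin-dependent kinase inhibitor p57, and Peg3 and Ndn encode a paternally expressed zinc-finger protein and the neuronal growth suppressor necdin. Many imprinted growth genes are known to be high in fetal and newborn tissue and to fall after birth in several organs.

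The members lie in 5 places in the mouse genome (GRCm38, GENCODE M21). On chromosome 12, all on the plus strand, Dlk1 spans 109452823 to 109463336, Meg3 109541001 to 109571726, Rian 109603940 to 109661716 and Mirg 109729764 to 109749460. On chromosome 7, H19 spans 142575529 to 142578143, Igf2 142650766 to 142666816, Cdkn1c 143458339 to 143461050 and Peg3 6703892 to 6730431, all on the minus strand, and Ndn spans 62346569 to 62350262 on the plus strand. RefSeq placed 39 mature microRNAs inside members on the same strand, 26 of them in Mirg, 6 in Rian, 3 in Meg3, 2 in H19 and 2 in Igf2. The 3′ libraries captured polyadenylated RNA and did not measure these microRNAs, so what is followed below is the host transcript. The mature microRNAs are shown because the host RNA is the source of each, with bases 2 to 8 (the seed that pairs with targets) in capitals and the host in parentheses after the name; among the 39, only miR-453 and miR-496a-5p, both in Mirg, shared a seed.
miR-770-5p (exon of Meg3): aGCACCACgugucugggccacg
miR-770-3p (exon of Meg3): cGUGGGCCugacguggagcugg
miR-370-3p (intron of Rian): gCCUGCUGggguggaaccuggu
miR-134-5p (exon of Mirg): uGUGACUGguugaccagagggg
miR-410-3p (exon of Mirg): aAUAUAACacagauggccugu
miR-675-5p (exon of H19): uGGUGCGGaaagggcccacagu
miR-675-3p (exon of H19): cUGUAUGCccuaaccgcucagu
miR-483-3p (intron of Igf2): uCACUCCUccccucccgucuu

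The start regions of Meg3, Rian and Mirg are printed because these 3 RNAs had the most similar levels across cell types of any members. RefSeq (GRCm38.p6) gave start regions, from 250 bases before to 50 bases after a transcript start, for 7 of the 9 members. The dinucleotide CG, which reads the same on both strands and is the base pair step that carries imprinting methylation, is in capitals. Over 32851 start regions of this length the median number of CG was 7, and 5.43% held none. RefSeq gave 2 start regions for Meg3. The region around the first base of the gene, printed here, held 13 CG (37.9% of all regions held as many or more), and the other, at chr12:109545148-109545447 inside the gene, held 1 (94.6%). The Mirg region held 10 (43.5%), and the Rian region, which lies downstream of the Meg3 start, held 0. The Mirg region is the start of a RefSeq transcript that begins inside the GENCODE gene, and it also covers the mature miR-668-5p, miR-668-3p and miR-485-3p. These counts describe the letters of the window and no methylation was measured.
Meg3 (chr12:109540746-109541045, plus strand): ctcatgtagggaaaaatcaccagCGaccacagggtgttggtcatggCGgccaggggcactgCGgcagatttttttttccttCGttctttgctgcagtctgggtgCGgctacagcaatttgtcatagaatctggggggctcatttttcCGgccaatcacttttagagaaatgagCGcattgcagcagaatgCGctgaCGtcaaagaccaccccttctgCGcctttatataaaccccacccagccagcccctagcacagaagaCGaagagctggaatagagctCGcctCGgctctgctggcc
Rian (chr12:109603695-109603994, plus strand): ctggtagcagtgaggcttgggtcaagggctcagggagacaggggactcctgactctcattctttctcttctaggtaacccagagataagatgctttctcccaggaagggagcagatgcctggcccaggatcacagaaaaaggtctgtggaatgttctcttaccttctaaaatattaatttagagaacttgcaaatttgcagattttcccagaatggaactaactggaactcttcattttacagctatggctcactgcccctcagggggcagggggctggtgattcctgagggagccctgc
Mirg (chr12:109734731-109735030, plus strand): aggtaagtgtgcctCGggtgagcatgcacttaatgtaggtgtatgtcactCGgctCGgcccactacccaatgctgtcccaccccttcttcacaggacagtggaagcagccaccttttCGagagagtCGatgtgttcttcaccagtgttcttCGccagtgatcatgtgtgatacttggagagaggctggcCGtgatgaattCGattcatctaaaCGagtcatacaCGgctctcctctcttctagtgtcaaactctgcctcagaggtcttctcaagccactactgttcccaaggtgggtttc

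The libraries held 8202, 8864 and 10293 barcodes in that order, of which 58.5, 44.6 and 67.6% passed the limits, and the kept cells had a median of 10236, 10766.5 and 5010.5 UMIs. Kept cells of any 2 libraries shared between 4 and 9 barcode sequences. Cells were clustered without the members, the other imprinted genes and the receptor genes, and clusters were named from marker genes, so that each class name below stands for cells like that type. The level of a class is the CPM of its summed cells in a library. The targeted gene Tfap2e stood at 34.2, 601 and 261 CPM in mature VSNs and 1.397, 94.0 and 36.9 in sustentacular cells, higher in both mutant libraries than in the control. Over the 5 immune classes it ran from 0 to 2.21, from 6.06 to 30.5 and from 3.45 to 26.2 CPM. The part of RNA from other cells in the sustentacular level was not tested. In sustentacular cells, the glia-like support cells of the sensory epithelium, the defining marker Fezf2 stood at 348, 329 and 436 CPM, and in fibroblasts the collagen gene Col1a1 stood at 8608, 9650 and 2058. The ages lay largely in different clusters of the same class: sustentacular cells in cluster 2 at P10 and cluster 32 at 3 months, fibroblasts in clusters 0 and 37, basal cells in cluster 3 against 30 and 28, gland cells in cluster 20 against 35 and 39, osteoblasts in clusters 5 and 18 against 5, precursors in N02, N16 and N00 against N27, immature VSNs in 5 clusters at P10 against N21, and mature VSNs in N05 and N09 (control), N22 (P10 mutant) and N24 (3 months). Smooth muscle and pericytes (clusters 11 and 21), endothelial cells (12 and 23) and glia (29) shared clusters across all libraries. Precursors at 3 months were shallow, with a median of 1956 UMIs against 16151 and 16383.5 at P10, and 41 of the 67 cells lay in N27 (median 1176). The mature VSN class held 57 cells at 3 months. Outside it, 58 cells of N25, 53 of N26 and 43 of N20 at 3 months had mature VSN as their best class but were left unnamed. At P10, 53 control and 24 mutant cells of N11 were likewise set apart as mixed neuronal. Cluster 36, of 133 cells of the 3-month library alone, had 9 of 11 fibroblast markers high but none among its top 10 genes, and was left unnamed. The 5 immune classes served as the measure of free RNA. The highest immune level of Meg3 was 206, 437 and 70.4 CPM, of Rian 23.7, 74.4 and 11.1, of H19 17.1, 21.2 and 0, of Igf2 23.2, 9.30 and 4.98, of Cdkn1c 72.6, 31.9 and 8.99, of Peg3 5.04, 4.85 and 2.88, and of Ndn 6.05, 7.97 and 0.411. Many of these maxima rest on few cells: 1 cell held 72.8, 42.9 and 31.6% of the Meg3 UMIs in those classes, and 88.9% of the Cdkn1c UMIs behind the control value. Without the cell of most UMIs in each class the highest immune level was 150, 250 and 48.1 for Meg3, and 8.78, 17.3 and 8.43 for Cdkn1c.

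A member was called lower (higher) at 3 months in a class when its level there was at least 2-fold below (above) that of both P10 libraries, with counts under 3 taken as 3, in classes of at least 20 cells per library and for genes with at least 20 UMIs over the 3 libraries. Of 99 pairs of a member and a class outside the immune cells, 78 had enough UMIs, and 47 of these were lower and 0 higher, beside 7.75% lower and 4.49% higher over all genes in the same classes. Since the list was chosen for this contrast, these counts are read against the background only as a description. In 9 of the 47 lower pairs the 3-month count was under 3, so their fold rests on the count of 3 taken in its place. The level at 3 months was below both P10 libraries in 62 pairs, above both in 8 and between them in 8. No share over all genes stands beside these counts. The median log2 ratio over all genes was itself below 0 in most classes. It ran from -0.68 in gland to 0.38 in osteoblasts against the P10 mutant, and from -0.66 to 0.30 in these classes against the control. The control and the mutant at P10, which share their age, were at least 2-fold apart in 17 of the 78 pairs. Over all genes the share 2-fold apart at P10 ran from 3.38% in sustentacular cells to 10.5% in glia. By the interval of the ratio, 5 of the 47 lower pairs reached 1 against at least 1 P10 library: Mirg in basal epithelium, H19 in gland, Rian in mature VSNs, Ndn in osteoblasts, and Mirg in smooth muscle and pericytes. On the lower side, the pairs nearest the limit were Meg3 in endothelial cells (2.02-fold), H19 in gland (2.03-fold) and Ndn in sustentacular cells (2.04-fold) inside it, and Igf2 in osteoblasts (1.97-fold), Peg3 in precursors (1.95-fold) and Ndn in endothelial cells (1.91-fold) outside it. On the higher side, Igf2 in gland, at 1.61, 0.810 and 3.19 CPM from counts of 9, 3 and 18, lay just under the limit. It passed the limit under some of the alternatives given at the end, so the count of 0 higher rests on a near call.

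By class, fibroblasts had all 9 members lower (7.36% of all genes), or 8 of 9 with cluster 36 counted among them, when Igf2 was not called, an alternative chosen after seeing the data. Basal epithelium had 8 of 8 tested lower (6.1%). Smooth muscle and pericytes had 5 of 8 lower (8.68%), sustentacular cells 5 of 9 (7.95%), endothelial cells 4 of 7 (7.44%), osteoblasts 4 of 8 (4.06%), mature VSNs 4 of 5 (6.76%), glia 3 of 6 (5.77%), gland and secretory epithelium 3 of 7 (20.8%) and neuronal precursors 2 of 6 (4.92%). Immature VSNs had 0 of 5 lower (3.79%), from 34 cells at 3 months, and had no value with each library clustered alone. The 5 immune classes, taken as the measure of free RNA, had 10 of 16 lower (18.9%). Of the 8222 lower calls of genes behind that share, 6463 were in B and plasma cells (69.4% of genes there), against at most 7.83% in any other immune class. B and plasma cells lay almost all in cluster 16 at P10, but at 3 months 134 lay in cluster 38 and 31 in cluster 16. That class is therefore not like for like between the ages, either for the background share or for free RNA. The median log2 ratio of 3 months to P10 mutant over the tested members was -2.13 in fibroblasts, against -0.18 for all genes, -2.64 in basal epithelium (all genes -0.14), -1.34 in sustentacular cells (-0.05), -1.38 in mature VSNs (-0.13) and 0.10 in immature VSNs (-0.01). By member, H19 was lower in 6 of 7 classes tested, Rian in 9 of 11, Meg3 in 8 of 11, Mirg in 4 of 6, Ndn in 7 of 11, Cdkn1c in 6 of 11, Igf2 in 3 of 8, Dlk1 in 2 of 2 and Peg3 in 2 of 11. In 11 of the 47 lower pairs, both P10 levels lay at or under the highest immune level of their library, and in 15 at least 1 did. The 11 pairs were 4 of the 8 for Meg3 (basal epithelium, mature VSNs, osteoblasts and endothelial cells), 3 of the 9 for Rian (basal epithelium, mature VSNs and endothelial cells), and 1 each for Mirg (basal epithelium), H19, Cdkn1c and Ndn (gland).

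**Figure D1:**
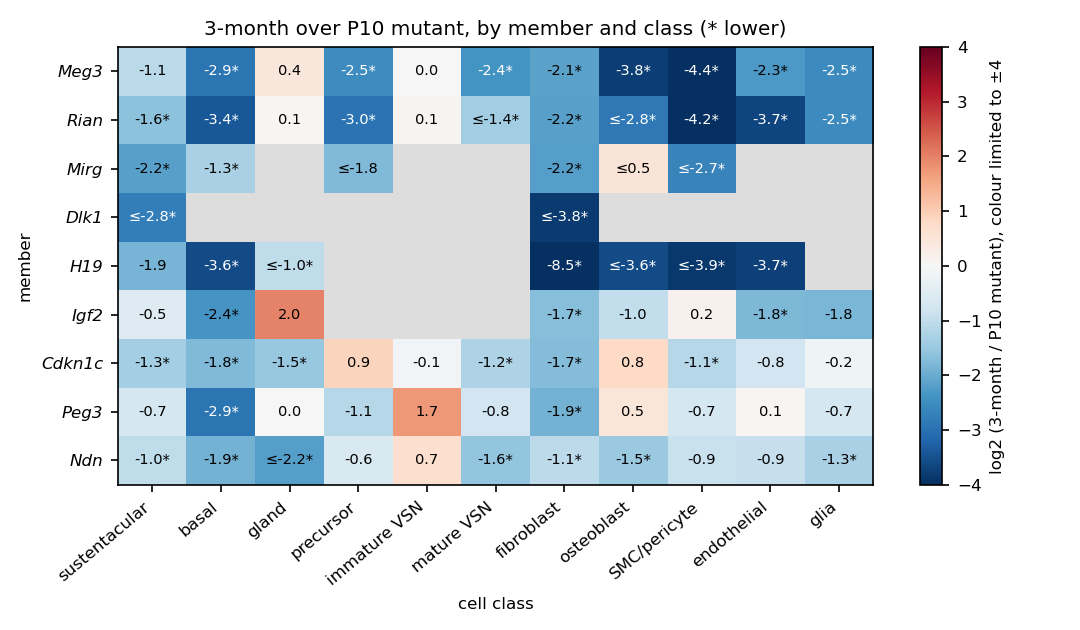
Heat map of the log2 ratio of the 3-month mutant to the P10 mutant for each member (rows) in 11 cell classes (columns), with the colour limited at 4 in either direction, stars for members at least 2-fold below both P10 libraries, the less-or-equal sign for 3-month counts under 3 taken as 3, and grey for fewer than 20 UMIs. Stars fill the fibroblast column, with 9 of 9 members (8 of 9, without Igf2, once cluster 36 is counted there), and are missing from the immature VSN column, with 0 of 5.

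Meg3 was highest in sustentacular cells in every library and so were Rian and Mirg. In sustentacular cells Meg3 stood at 6085 CPM (interval 6042 to 6129), 7016 (6970 to 7063) and 3325 (3278 to 3373). These levels were 3.96, 4.15 and 3.40 times those of the next class, which was fibroblasts at P10 and non-sensory epithelium at 3 months. The 3-month level was 2.11-fold below the P10 mutant and 1.83-fold below the P10 control, so Meg3 in its highest class was not called lower. At least 1 Meg3 UMI was found in 461 of 497, 564 of 583 and 325 of 331 sustentacular cells. After each cell was thinned to 1000 UMIs the shares were 88.0, 92.1 and 89.7%, against 5.43 to 12.3%, 2.04 to 11.2% and 1.23 to 3.56% over the 5 immune classes. The median sustentacular cell held 107, 110 and 44 Meg3 UMIs at a median depth of 19075, 15667 and 13356 UMIs, and no single cell held more than 2.27% of them.

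Rian, the RNA downstream of Meg3, stood in sustentacular cells at 858, 1066 and 343 CPM. It was 3.1-fold lower at 3 months than in P10 mutant cells and 2.5-fold lower than in control cells, and the thinned share of cells with a UMI was 55.2, 55.9 and 29.6%, against at most 4.94, 3.16 and 0.435% in an immune class. Mirg, the most downstream of these RNAs, stood at 87.1, 123 and 27.2, which was 4.53- and 3.21-fold lower, but at a mitochondrial limit of 5% the 3-month level was 0.574 of the nearer P10 level and no longer called. As ratios of 3 months to P10 mutant, Meg3 was at 0.474 (0.466 to 0.481), Rian at 0.322 (0.307 to 0.338) and Mirg at 0.221 (0.186 to 0.261), with intervals that did not overlap. For every 100 Meg3 UMIs there were 14.1 Rian UMIs (13.8 to 14.4) in control cells at P10, 15.2 (14.9 to 15.5) in mutant cells at P10 and 10.33 (9.85 to 10.8) at 3 months. Mirg gave 1.43, 1.75 and 0.817 per 100 Meg3 UMIs. The intervals of the Rian ratio at 3 months lay below those of both P10 libraries, which were themselves apart.

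**Figure D2:**
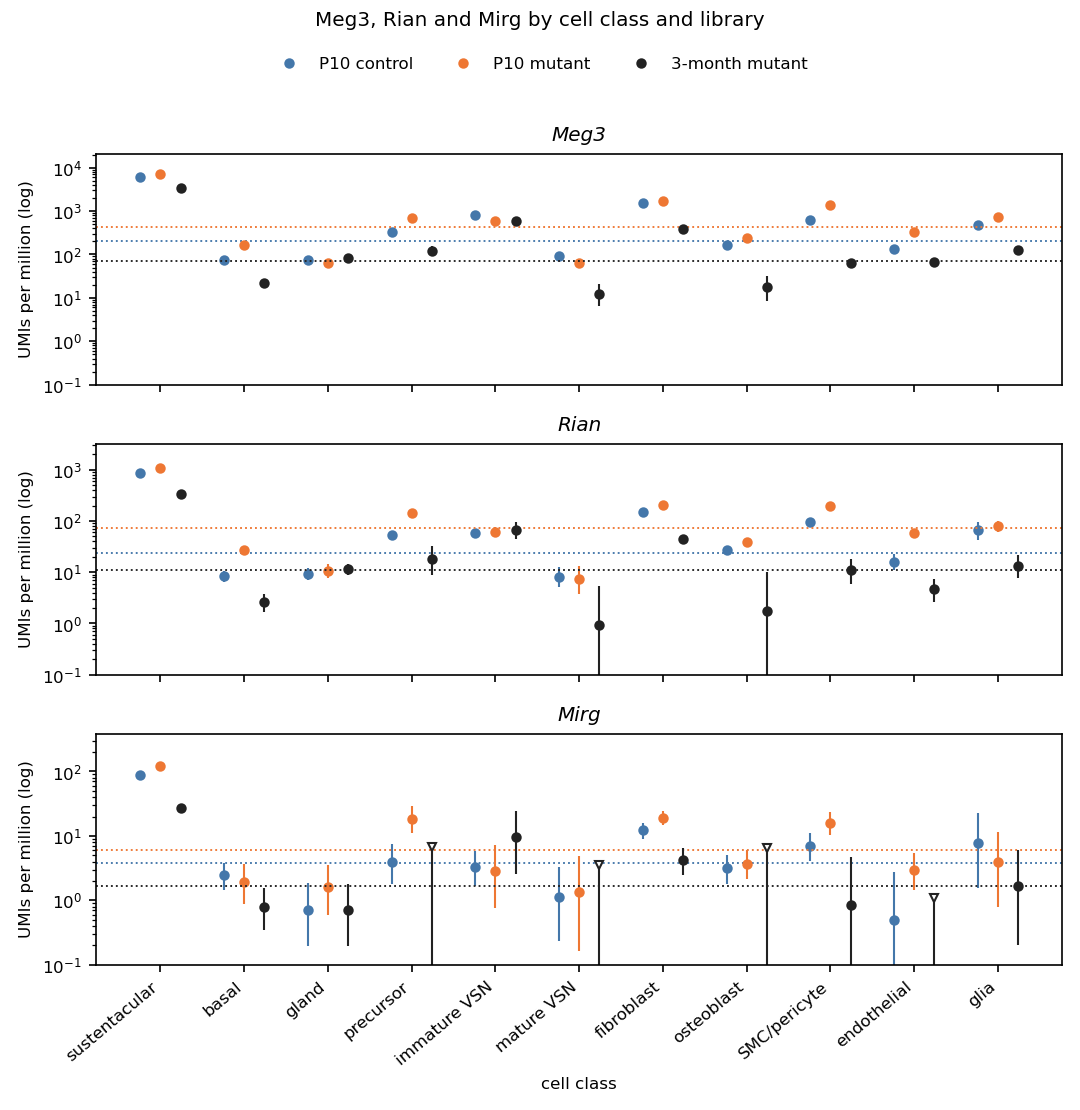
Levels of Meg3, Rian and Mirg in CPM on a log axis by cell class, with blue, orange and black dots for the libraries in the order control, mutant at P10 and mutant at 3 months, vertical lines for 95% counting intervals, open triangles for the upper bound at a count of 0, and dotted lines for the highest immune class of each library. Sustentacular cells lead in all 3 panels, with Meg3 at 6085, 7016 and 3325, and in immature VSNs Meg3 at 3 months (590) lies on the P10 mutant (589) and below the control (801).

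Fibroblasts were the next class for Meg3 at P10. Meg3 stood there at 1538 and 1692 CPM at P10 and 386 at 3 months, 4.38-fold below the P10 mutant and 3.98-fold below the control, and Rian at 153, 204 and 45.5. The share of fibroblasts with a Meg3 UMI after thinning was 66.9, 72.4 and 26.8%. Here the ratio of Rian to Meg3 was 9.96, 12.1 and 11.8 per 100 and the intervals of the latter pair (11.2 to 13 and 10.1 to 13.6) overlapped. In glia, the ensheathing cells of the vomeronasal nerve, Meg3 stood at 471, 738 and 127 and Rian at 66.2, 79.0 and 13.5. Glia came from 1 cluster in all 3 libraries, and both RNAs were lower there at 3 months.

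Smooth muscle and pericytes also kept their clusters across libraries. Meg3 stood at 627, 1359 and 62.5 there, and in the pericyte cluster 21 at 1727, 1263 and 74.4. The P10 libraries differed 2.17-fold, 34.9% of the UMIs of the P10 mutant came from 1 cell, and the sustentacular marker Fezf2 stood in this class at 18.5, 39.2 and 6.66 CPM; the part of sustentacular RNA in these levels was not tested. Neuronal precursors held Meg3 at 337, 691 and 121 and Rian at 52.7, 141 and 18.1, with a Fezf2 level of 12, 15.9 and 8.70% of that in sustentacular cells, against 5.54, 9.85 and 3.64% for Meg3. With each library clustered alone, the 3-month precursor level of Meg3 lay between the P10 libraries and that of Rian was 1.13 times the nearer P10 level, so neither was called. In basal epithelium (73.8, 168 and 22.1), gland (74.1, 62.4 and 84.9), mature VSNs (93.1, 65.2 and 12.3), osteoblasts (162, 242 and 17.8) and endothelial cells (133, 324 and 65.9) Meg3 lay at or under the highest immune level of the library, apart from gland cells at 3 months. Levels in that range cannot be told from free RNA by this measure. Without the cell of most UMIs in each immune class, osteoblasts of the control and endothelial cells of the P10 mutant and at 3 months lay above the highest immune level. That comparison left out cells on the immune side only and so favours these classes. In control osteoblasts 1 cell held 28.6% of the Meg3 UMIs, and in P10 mutant endothelial cells 17.1%. In endothelial cells 73.6% of the 3-month Meg3 UMIs came from 1 cell, and with mitochondrial, receptor and a few abundant genes left out of the denominator the ratio was 0.511 and not called.

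Immature VSNs, the Gap43-positive neurons that have not yet matured, held Meg3 at 801 (771 to 832), 589 (550 to 630) and 590 (519 to 668) CPM. The 3-month level was 0.736 (0.644 to 0.839) of the control. The ratio of 3 months to P10 mutant was 1.00 (0.866 to 1.16), and that of Rian, at 58.4, 62.1 and 66.6, was 1.07 (0.675 to 1.66). There were 290, 131 and 34 such cells, and 34.7% of the 3-month Meg3 UMIs came from 1 cell. In mature VSNs, which express Omp, Meg3 stood at 93.1, 65.2 and 12.3, and 69.2% of the 3-month UMIs came from 1 cell. After thinning, a Meg3 UMI was found in 38.4, 32.5 and 38.2% of immature VSNs, against 12.7 and 6.94% of mature VSNs at P10 and 0 of 57 at 3 months, which allows up to 6.27% by the Clopper-Pearson interval.

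Dlk1, from the paternal copy of the domain, was a fibroblast RNA at a low level. It stood in fibroblasts at 15.2 (11.8 to 19.4), 9.22 (6.38 to 12.9) and 0.437 (0.0529 to 1.58) CPM, from counts of 65, 34 and 2. With the 2 UMIs taken as 3, the ratio of the 3-month level to that of P10 mutant cells came to 0.0711 (0.014 to 0.226). With each library clustered alone or at resolution 2, which change the cells of the class, the ratio to the nearer P10 level was 0.539 and 0.551 and not called. In sustentacular cells, where the maternal RNAs were highest, Dlk1 stood at 3.12, 3.63 and 0.178. The other 9 classes had fewer than 20 Dlk1 UMIs over the libraries. The maternal RNAs and the paternal coding gene of the domain were highest in different classes at P10.

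H19 showed the widest gap between the ages among the members with enough UMIs. In fibroblasts it stood at 897 CPM (869 to 926), 880 (850 to 911) and 2.4 (1.20 to 4.30), from counts of 3825, 3247 and 11. This was 373- and 366-fold lower, and the P10 libraries lay within 1.02-fold of each other. At least 1 UMI was seen in 242 of 376, 232 of 343 and 4 of 547 fibroblasts, or 38.1, 40.2 and 0.403% after thinning, against at most 1.67 and 1.16% in the immune classes at P10 and no immune cell at 3 months. The 3-month fibroblasts had a median of 7683 UMIs and the P10 ones 10649 and 9892. Fibroblast levels of the dissociation-stress genes were 17273, 18620 and 20295 CPM, and Gm42418, a gene whose reads come largely from ribosomal RNA, took 0.213, 0.254 and 5.47% of fibroblast UMIs, and their part in the levels of H19 was not tested.

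The other classes with H19 at P10 had little or none at 3 months. Osteoblasts stood at 43.1, 64.4 and 0 CPM, smooth muscle and pericytes at 14.2, 36.7 and 0, and endothelial cells at 98.1, 74.1 and 5.52. With the counts of 0 at the floor of 3 UMIs per class and library, the 3-month levels were at least 12.1-fold lower than in the P10 mutant and 8.08-fold lower than in the control in osteoblasts, and at least 14.7- and 5.7-fold lower in smooth muscle and pericytes. Most endothelial H19 at P10 lay in cluster 23, which has the lymphatic markers Prox1, Lyve1 and Flt4 among its leading genes, at 711, 1578 and 46.0. In cluster 23 the P10 levels rested on 15 of 65 and 6 of 45 cells, and at 3 months on 7 of 97 cells, and 48.2% of the endothelial H19 UMIs of the P10 mutant came from 1 cell. At a mitochondrial limit of 5% the 3-month endothelial levels of H19 and Igf2 lay between the P10 libraries and were not called.

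Igf2, the insulin-like growth factor made beside H19, was also highest in fibroblasts, with a smaller fold between the ages. It stood at 711 (686 to 737), 828 (799 to 858) and 255 (241 to 270) CPM, which was 2.79- and 3.24-fold lower at 3 months, in 338 of 376, 319 of 343 and 309 of 547 cells. This call depended on leaving out cluster 36, which held 2369 of the 3768 Igf2 UMIs of the 3-month library. With its cells counted as fibroblasts, the 3-month level was 551 CPM, 1.29-fold below the control and 1.5-fold below the P10 mutant, and Igf2 was not called, while H19 stood at 2.18. The thinned shares were 44.2, 51.7 and 19.8%, against at most 2.74, 0 and 0.613% in an immune class. There were 126 (120 to 132), 106 (101 to 112) and 0.942 (0.469 to 1.69) H19 UMIs for every 100 Igf2 UMIs in fibroblasts. Igf2 in smooth muscle and pericytes stood at 23.9, 25.9 and 29.2 while H19 there was 0 at 3 months, and the H19 ratio at 3 months had an upper bound of 11.1 per 100 against 59.7 and 142 at P10. The control H19 level behind this ratio lay under the highest immune level. Osteoblast Igf2 stood at 83.1, 73.7 and 37.4, just under the limit of 2-fold, and endothelial Igf2 at 46.1, 28.5 and 8.13 was lower. The Igf2 levels of sustentacular cells (3.62, 6.28 and 4.44) were within the range of the immune classes.

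**Figure D3:**
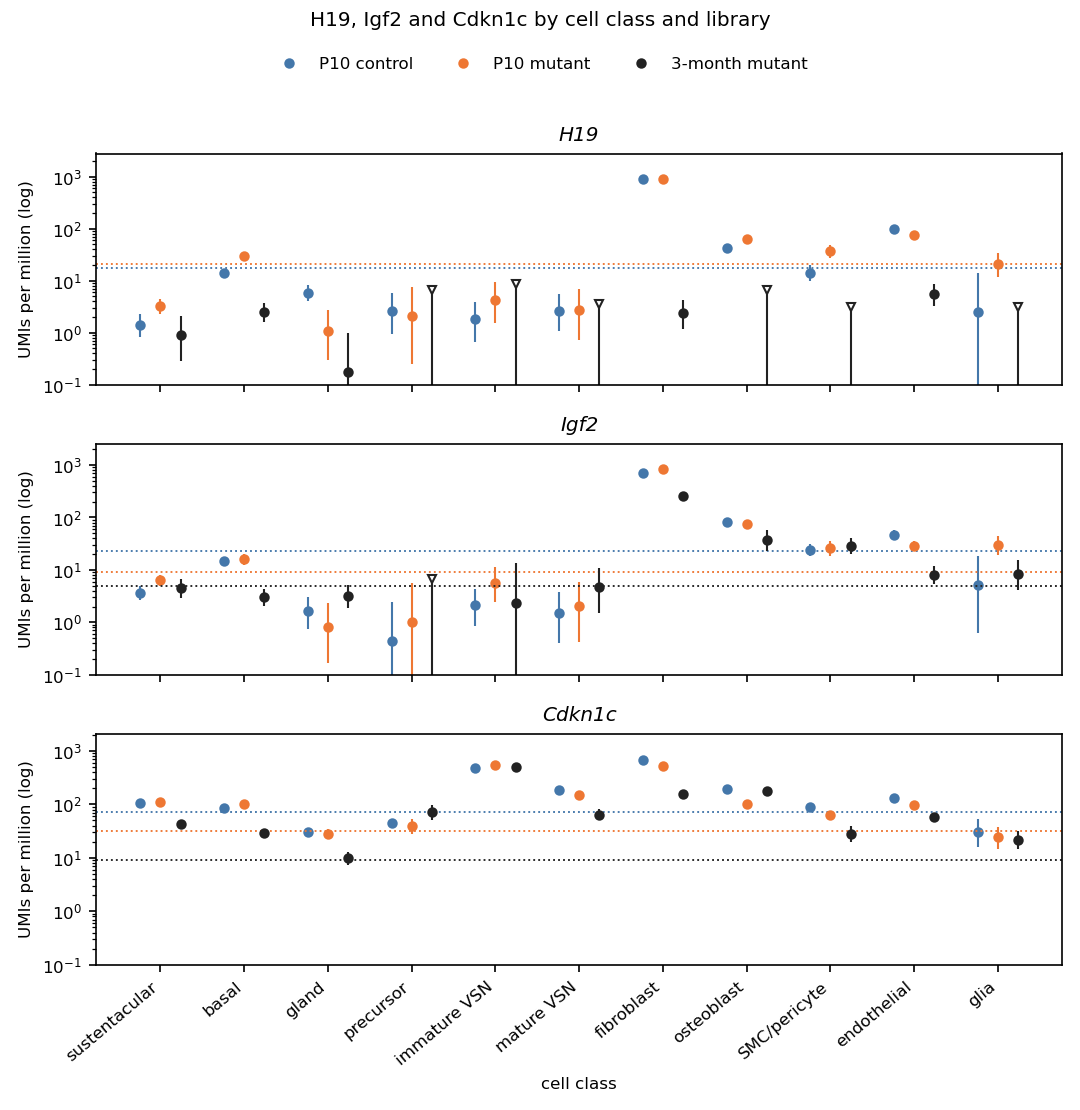
Levels of H19, Igf2 and Cdkn1c in CPM on a log axis by cell class, with colours, counting intervals, open triangles and dotted lines for the highest immune class as in the plot of Meg3, Rian and Mirg. Fibroblast H19 stands at 897 and 880 at P10 and 2.4 at 3 months, and fibroblast Igf2 at 711 and 828 against 255, or 551 with cluster 36 counted among the fibroblasts.

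**Figure D4:**
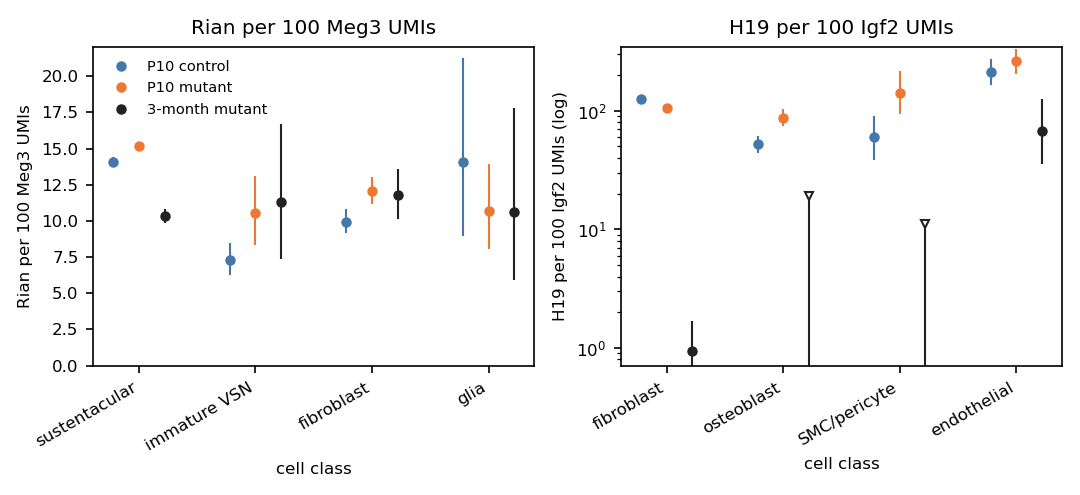
UMIs of Rian per 100 UMIs of Meg3 (left) and of H19 per 100 UMIs of Igf2 (right, log axis) in 4 cell classes each, by library, with 95% intervals and an open triangle where no H19 UMI was counted. The Rian ratio of sustentacular cells is 14.1 and 15.2 at P10 and 10.33 at 3 months, and the H19 ratio of fibroblasts is 126 and 106 against 0.942.

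Cdkn1c, which holds cells out of the division cycle, was spread over stromal and neuronal classes. Fibroblasts held 678 (654 to 703), 520 (497 to 543) and 156 (144 to 167) CPM, a level 4.36-fold below the P10 control and 3.34-fold below the P10 mutant. In sustentacular cells it stood at 107, 109 and 43.0, which was 2.5- and 2.54-fold lower, and the thinned share was 10.5, 9.35 and 2.72%, against at most 2.94, 4.08 and 1.23% in an immune class. At a mitochondrial limit of 5% the 3-month level was 0.978 of the nearer P10 level, so that the sustentacular call was lost. Basal epithelium (84.3, 99.4 and 29.0), gland (30.4, 28.1 and 9.75) and smooth muscle and pericytes (89.7, 61.9 and 28.3) were also lower. The gland levels at P10 lay under the highest immune level of Cdkn1c, and above it without the cell of most UMIs in each immune class. No gland cell was left out there, and 1 cell held 12.9 and 14.4% of the gland UMIs at P10.

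In osteoblasts, endothelial cells and immature VSNs Cdkn1c was not called lower. Osteoblasts held 194, 101 and 176, between which the 3-month library was not the lowest, and endothelial cells 134 (119 to 151), 98.4 (88.1 to 110) and 58.3 (50.6 to 67.0), with an interval at 3 months below both others, 2.3-fold below the control and 1.69-fold below the P10 mutant. In immature VSNs Cdkn1c stood at 486 (463 to 511), 536 (499 to 576) and 497 (432 to 569), a ratio of 0.927 (0.792 to 1.08) to the P10 mutant. Precursors held 44.4, 38.9 and 72.2, so in every library the level of immature VSNs was above that of precursors. The 3-month precursors also had more Gap43 (63.1, 31.7 and 135) and Omp (1.74, 2.05 and 27.1). The part of more mature neurons in their Cdkn1c level was not tested. Mature VSNs held 190, 153 and 64.3, and were lower at 3 months 2.95- and 2.37-fold, with a ratio of 0.502 and no call at resolution 2. The highest class of Cdkn1c was fibroblasts in control cells, non-sensory epithelium in mutant cells at P10 (864, in 189 cells of cluster 33) and immature VSNs at 3 months.

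Within VSNs, Cdkn1c had its higher level in cells of the V2R type, and the intervals of the receptor types lay apart in immature VSNs of both P10 libraries and in mature control VSNs. Cells were taken as V1R- or V2R-dominant when at least 80% of at least 5 receptor UMIs came from Vmn1r (apical) or Vmn2r (basal) genes. In immature VSNs of the control Cdkn1c stood at 344 (311 to 379) in V1R-dominant and 615 (547 to 688) in V2R-dominant cells, and in those of the P10 mutant at 275 (230 to 325) and 735 (633 to 849). For mature control VSNs the levels were 118 (102 to 135) and 319 (275 to 367), and the intervals overlapped in mature mutant cells, at 119 (96.4 to 145) and 156 (121 to 198) at P10 and 35.6 (19.5 to 59.7) and 77.4 (57.4 to 102) at 3 months. Ndn had the other order in immature VSNs, at 154 (133 to 179) in V1R-dominant against 38.9 (23.4 to 60.8) in V2R-dominant control cells, and 77.3 (54.7 to 106) against 35.7 (16.3 to 67.9) in mutant cells at P10, where the intervals overlap. These rest on 81 and 39 immature control cells and 30 and 16 immature P10 mutant cells, and there were only 5 and 2 such cells at 3 months. Cells of 1 library are not replicates, so the intervals say nothing of the spread between animals.

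Peg3 and Ndn, both paternally expressed, were shared by neurons, glia and stroma. Peg3 was highest in fibroblasts at P10 (173 and 159 CPM) and lower there at 3 months (43.3), a 4- and 3.67-fold difference. In basal epithelium it stood at 31.6, 25.7 and 3.37. Precursors held Peg3 at 94.9, 108 and 48.7, glia at 61.1, 69.9 and 43.1, and sustentacular cells at 30.8, 26.2 and 16.2, all below both P10 libraries but inside the 2-fold limit of at least 1 of them. In immature VSNs Peg3 stood at 128, 63.5 and 209, above both P10 libraries, with 48.9% of the 3-month UMIs in 1 of 34 cells.

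Ndn was highest in mature VSNs at P10, at 152 (138 to 168) and 137 (119 to 157) CPM, and stood at 46.4 (34.3 to 61.3) at 3 months, 3.28- and 2.96-fold lower. The next class, glia, held 140, 119 and 49.0, with intervals that overlapped those of mature VSNs in every library. Fibroblast Ndn at 111, 99.0 and 47.6 was 2.34- and 2.08-fold lower, and 0.516 and 0.51 of the nearer P10 level, not called, with each library clustered alone and at resolution 2. Sustentacular Ndn stood at 11.5, 8.70 and 4.26, an order of magnitude under mature VSNs, and was not called under 3 of the alternatives (ratios of 0.548 to 0.602). In immature VSNs it stood at 112, 68.4 and 109, but 76.1% of the 3-month UMIs came from 1 cell, and without the cell of most UMIs in each library the 3-month level was 0.417 of the nearer P10 level.

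**Figure D5:**
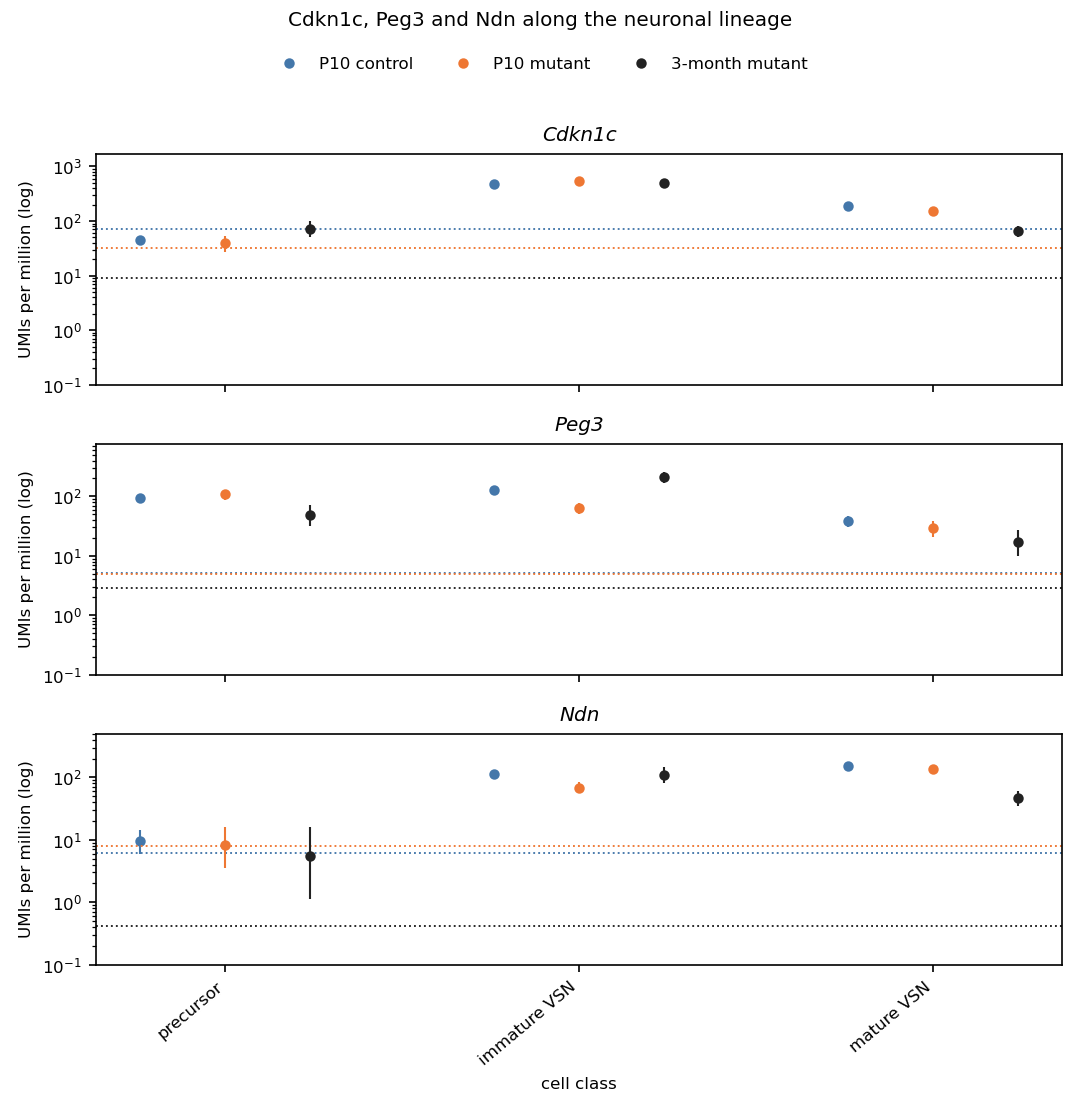
Levels of Cdkn1c, Peg3 and Ndn in CPM on a log axis in neuronal precursors, immature VSNs and mature VSNs by library, with 95% counting intervals. Cdkn1c is highest in immature VSNs of all 3 libraries (486, 536 and 497), whereas Ndn at P10 is highest in mature VSNs (152 and 137).

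A class outside the age comparison, non-sensory epithelium in cluster 33, was almost absent from the control (1 cell) and held 189 mutant cells at P10 and 111 at 3 months. Its Tfap2e level was 1185 and 648 CPM in those libraries. Meg3 stood there at 1010 and 977 and Rian at 146 and 132, with overlapping intervals between ages, while H19 stood at 243 and 0.464, Cdkn1c at 864 and 306 and Ndn at 23.7 and 7.42. The intervals of H19, Cdkn1c and Ndn did not overlap between the ages.

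Other imprinted genes were described in the same 11 classes, 56 of a list of 60 being in the files. Of those listed as maternally expressed, 26 of 187 tested pairs of gene and class were lower (13.9%) and 9 higher (4.81%) at 3 months. Of those listed as paternally expressed, 36 of 164 were lower (21.95%) and 12 higher (7.32%). Over all genes in the same classes the shares were 7.75% lower and 4.49% higher. B830012L14Rik, a noncoding RNA of the Dlk1-Dio3 domain, stood in sustentacular cells at 137, 180 and 22.9 CPM and in fibroblasts at 20.9, 23.9 and 2.19. Grb10, an adaptor that damps insulin receptor signalling, stood at 46.6, 44.2 and 9.59 in sustentacular cells and 114, 95.2 and 27.5 in fibroblasts. Mest stood in fibroblasts at 78.6, 46.1 and 3.50 and in endothelial cells at 50.6, 48.0 and 4.06, and Zdbf2 in sustentacular cells at 11.3, 11.8 and 0.178. Among the genes higher at 3 months, the matrix proteoglycan gene Dcn stood in fibroblasts at 1683, 1481 and 8721. Zrsr1 was higher in sustentacular cells (9.12, 10.31 and 25.7) and fibroblasts (17.6, 14.9 and 43.5). In immature VSNs Nap1l5 (40.4, 25.4 and 97.5) and Usp29, the neighbour of Peg3 (20.2, 13.4 and 50), were higher.

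Around Igf2, 34 of 160 tested pairs of the insulin-like growth factor list were lower (21.25%) and 13 higher (8.125%) at 3 months, beside 7.75 and 4.49% over all genes. The ligand Igf1 stood in fibroblasts at 576, 926 and 177. Among the binding proteins, Igfbp3 stood there at 236, 212 and 7.21 and in sustentacular cells at 39.2, 27.7 and 1.78, whereas Igfbp5 (1871, 1972 and 7102) and Igfbp6 (67.1, 71.3 and 334) were higher in 3-month fibroblasts. Around Cdkn1c, 5 of 58 pairs of the other cyclin-dependent kinase inhibitors were lower (8.62%) and 3 higher (5.17%), which is near the share over all genes. Among them, Cdkn1a stood at 183, 200 and 83.1 and Cdkn2c at 7.64, 5.08 and 1.24 in sustentacular cells. Cell-division genes were lower in 77 of 133 pairs and higher in 0, and their summed level in sustentacular cells was 1397, 1078 and 460 CPM; the part of fewer dividing cells in the levels of the members was not tested. Dissociation-stress genes were lower in 17 of 132 pairs (12.9%) and higher in 13 (9.85%).

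Likeness was measured as the Pearson correlation of log2 of CPM plus 1 over 53 profiles of a class in a library, among 14812 genes, and is a description because profiles of 1 library share depth and free RNA. Meg3 was most like Rian (0.96), Mirg (0.91) and B830012L14Rik (0.86), all of the same domain, and Mirg was most like Rian (0.92). H19 was most like Eln, the elastin gene (0.72), Igf2 (0.70) and Dlk1 (0.69). Igf2 was most like Cdh11 (0.88), Mrc2 (0.87) and Lox (0.86), and Dlk1 like Arsi (0.72), Cacna2d3 (0.71) and Col26a1 (0.71). Cdkn1c was most like Dpysl3 (0.84), Auts2 (0.83) and Smarca1 (0.81), Peg3 like Armcx1 (0.89), Pard3b (0.87) and Dbn1 (0.86), and Ndn like Cpt1c (0.90), Uggt2 (0.88) and Armcx2 (0.87). Genes annotated over a member on the other strand had few UMIs in kept cells: Igf2os had 26, 15 and 24 against 4016, 3884 and 3768 of Igf2, Gm44732 had 5, 3 and 1 against 9781, 9646 and 3243 of Cdkn1c, and Gm32061 had 0 in each library against 2428, 1448 and 664 of Ndn.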

How the data were processed

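The deposited matrices hold UMI counts per gene and barcode, which the authors made from 10x 3′ v3.1 libraries of papain-dissociated, frozen VNO cells with bcl2fastq, Cell Ranger 4.0.0 and the mm10 reference per the submitters' processing notes. The matrix header of the 3-month library names Cell Ranger 6.0.1 and those of the P10 libraries 4.0.0. Whether intronic reads were counted is not given in the sources used here. The members and gene lists were chosen with earlier results of these data known.

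Kept barcodes (4795, 3956 and 6960, with 62269401, 53961794 and 57257139 UMIs) were clustered together with scanpy 1.11.5 on 2000 variable genes, 30 principal components and 20 neighbours (Leiden resolution 1), without batch correction, and clusters were named from marker lists. Neuronal clusters were clustered again. UMIs were summed per class and library and given as CPM, per 1000000 UMIs of all genes. Levels have exact Poisson intervals, shares exact Clopper-Pearson intervals, and ratios exact conditional binomial intervals, at 95% and for counting error only. No test between libraries was possible with 1 library per group. Doublets were kept, since Scrublet's own threshold marked 3, 1 and 0 barcodes, and an alternative left out the highest scores at 0.8% per 1000 barcodes. Other alternatives were a mitochondrial limit of 5%, higher UMI limits, the mean over cells, another denominator, each library clustered alone, resolution 2, a 3-fold limit and leaving out the top cell. The genes other than members that are named were the 3 most like each member, the 3 with the largest folds of each list in a class, and genes overlapping a member. Of these, those in the classes described are printed. Next to the mitochondrial limit, Meg3 stood at 2866, 5001 and 1268 CPM in barcodes with 9 to 10% and at 3565, 4204 and 1651 in those with 10 to 11%.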

Additional observations from a re-analysis of the deposited data

Results flagged for a closer look

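Peg3 in immature VSNs was picked out because its level at 3 months was 1.64 times the higher P10 level, while Peg3 was at least 2-fold lower at 3 months in 2 other classes, basal epithelium and fibroblasts. The difference between classes was not tested. In immature VSNs 48.9% of the 3-month UMIs came from 1 cell.

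Igf2 was picked out in an unnamed cluster that was part of no named class. Cluster 36, led by Angptl7, Apod and Hhip and made of 133 cells of the 3-month library alone, held Igf2 at 1284 CPM, with a UMI in 133 of 133 cells. This was above the fibroblast level of the same library (255) and above the P10 fibroblasts (711 and 828). Its best class by markers was fibroblast, with 9 of 11 markers high, but none of them was among its top 10 genes and a glia marker was, so it was left unnamed. Counted with the fibroblasts it brought their 3-month Igf2 to 551 CPM, and the call of Igf2 there was lost. Over all kept cells Igf2 stood at 64.5, 72.0 and 65.8. H19 stood in that cluster at 1.63, from 3 UMIs. Since the cluster had no counterpart in the P10 libraries, age and library cannot be told apart.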

How the results depend on the processing

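No paired analysis was possible because each group is 1 library. At a mitochondrial limit of 5%, 25 pairs of member and class were lower at 3 months (47 in the report) among 49 with a value, and 116 of 185 levels lay within 1.5-fold. A 3-fold limit left 27 lower members, and 30 lower and 11 higher pairs of the other imprinted genes (62 and 21 in the report), and a minimum of 100 UMIs left 38 and 10. Members higher at 3 months (0 in the report) were 1 with the highest Scrublet scores left out, 2 with the mean over cells, 1 with the other denominator, 1 at resolution 2 and 1 without the top cell, where Igf2 in gland passed the limit each time and Cdkn1c in precursors (2.54-fold) with the mean over cells. Rian in precursors turned to 1.13 times the nearer P10 level with each library clustered alone. Under that setting immature VSNs had no value, so their lack of lower calls could not be compared. Lower calls that were lost include Mirg (0.574) and Cdkn1c (0.978) in sustentacular cells at 5%, Ndn in sustentacular cells (0.548 to 0.602 under 3 settings), Dlk1 in fibroblasts (0.539 and 0.551) and Meg3 in endothelial cells (0.511), as ratios to the nearer P10 level, and the cause was not tested. Of 47 lower pairs, 26 were lower under all of the cell limits, the doublet setting, the mean over cells, the other denominator and the other clusterings that gave a value. Thinned shares lower at 3 months, by intervals that did not overlap, numbered 15 of 99, and 11 to 15 over 20 other draws. No share over all genes stands beside this count, so it says nothing of how the members differ from other genes. With cluster 36 counted as fibroblasts, chosen after seeing the data, 46 pairs were lower and Igf2 in fibroblasts (0.774) was not. The depth of 3-month gland cells (median 671 UMIs) and precursors (1956) limits their levels.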
